A study of Mus musculus with 9 samples.

Results

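Transcripts of 8 genes of the cell death machinery were followed in gut organoids of APCmin/+ mice: the BCL2 family genes Bcl2, Bcl2l1, Mcl1, Bax, Bbc3 and Bid, the death receptor gene Tnfrsf10b, and the initiator caspase gene Casp8. They were taken by symbol from a table of 23955 rows, and all 8 were found. APCmin/+ mice carry 1 truncated copy of the tumour suppressor gene Apc and form intestinal polyps. The 3 groups of 3 biological replicates were sequenced as bulk RNA. MIN organoids were grown from APC-mutated gut epithelium of normal appearance beside the polyps, Adenoma organoids from adenomatous polyps, and Sulindac organoids from adenomatous polyps and then exposed to sulindac, a non-steroidal anti-inflammatory drug that inhibits cyclooxygenases. All groups thus shared the Apc mutation and the culture medium with Noggin, EGF, bFGF, R-spondin1 and B27, and no wild-type organoids were among the 9 samples. The number, age and sex of the mice, the dose and duration of sulindac on the organoids and any vehicle given to the Adenoma cultures are not given in the sources used here.

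The mitochondrial and the death receptor route to apoptosis meet in these genes. In the mitochondrial route, the pro-survival proteins BCL2, BCL-XL (from Bcl2l1) and MCL1 hold the pore-forming proteins BAX and BAK in check, and BH3-only proteins such as PUMA (from Bbc3) and BIM (from Bcl2l11) release them by binding the pro-survival proteins. In the death receptor route, the ligand TRAIL (from Tnfsf10) engages its receptor DR5 (from Tnfrsf10b), the adaptor FADD recruits caspase-8, and caspase-8 can cleave BID, which carries the signal to the mitochondria. In the intestine both routes act on a tissue that renews itself rapidly, and Bax, Bbc3 and Tnfrsf10b are known target genes of p53.

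The libraries held 30881206 to 48412477 counts, and the 8 genes had between 155 and 11945 counts in each sample. Levels are given as CPM (counts divided by the scaled library size, per 1000000) after trimmed-mean (TMM) scaling, and differences as log2 fold changes from edgeR's quasi-likelihood test, with standard errors (SE) and p-values adjusted by Benjamini-Hochberg over all genes tested at a false discovery rate of 1%. MIN 3 and Adenoma 3 stood apart from the other libraries of their groups: chi-square per gene was 77.0 and 69.1 between MIN 3 and the other MIN samples against 19.4 between MIN 1 and MIN 2, and 73.9 and 81.7 for Adenoma 3 against 20.7 between Adenoma 1 and Adenoma 2. Calls that change without this pair are given both ways for the 8 genes and for the genes named by the rule stated below. The labelled tissue was checked against its markers: 7 epithelial markers (among them Epcam, Cdh1 and Krt8) had sums of 5565 to 8073 CPM for MIN, 3340 to 4351 CPM for Adenoma and 4582 to 5500 CPM for Sulindac. The 7 leukocyte markers had sums of 4.53 to 6.35 CPM (MIN), 8.33 to 16.7 CPM (Adenoma) and 3.09 to 4.27 CPM (Sulindac), with Itgax at 0 and Ptprc at no more than 0.225 CPM. Of these, the macrophage marker Cd68 was 1.13 to 2.26, 7.94 to 16.2 and 2.84 to 3.90 CPM. It was higher in Adenoma than in MIN (log2 fold change 2.79, SE 0.35, edgeR adjusted p = 0.000193). With sulindac it was lower than in Adenoma (-1.78, SE 0.27, edgeR adjusted p = 0.00193). Itgam, of the same list, was instead highest in MIN (3.31 to 4.03 CPM), with maxima of 0.365 (Adenoma) and 0.167 CPM (Sulindac). Its log2 fold change in Adenoma against MIN was -4.03 (SE 0.38, edgeR adjusted p = 3.7e-05). Cd68 and Itgam thus moved in opposite directions between these groups, and Csf1r stayed at or below 0.146 CPM in every sample. Endothelial markers, 3 in number, summed to at most 0.572 CPM. Among 7 mesenchymal markers Col1a2 and Col3a1 were at 0 in all samples, although the sum was 107 to 262 CPM in Adenoma against 3.67 to 9.33 CPM elsewhere, most of it Vim. The 8 gut lineage markers (such as Lgr5, Muc2 and Fabp2) had sums of 5789 to 7997 CPM for MIN, 108 to 194 CPM for Adenoma and 57.4 to 93.0 CPM for Sulindac. Most of the MIN sum was Lyz1, a Paneth cell gene, at 3741 to 5751 CPM for MIN, 27.2 to 69.5 CPM for Adenoma and 9.34 to 16.1 CPM for Sulindac, and Olfm4, a crypt stem cell gene, at 658 to 1595 CPM in MIN and at most 0.231 and 1.25 CPM in the other groups. Lgr5 was 189 to 264, 77.0 to 122 and 39.2 to 73.2 CPM. The part of these shifts in the results below was not tested, and in bulk RNA fewer cells of a type and less RNA per cell cannot be told apart.

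Of the 8 genes, 4 were higher in Adenoma than in MIN organoids and none was lower, where 18.5% of the 13744 genes tested were higher and 20.1% lower. With sulindac, 3 of 8 were higher than in untreated Adenoma organoids and none lower, against 8.32% and 9.10% of 12962 genes. Without Sulindac 3 only Bcl2l1 passed, and 423 genes were higher and 386 lower over the whole table instead of 1078 and 1179. Between Sulindac and MIN, 5 of 8 were higher and none lower, against 23.0% and 26.8% of 13551 genes. The median log2 fold change of the 8 genes was 0.60, 0.04 and 1.10 in these comparisons, and that of all genes tested was -0.01, -0.01 and -0.03. The 8 genes were chosen with earlier results of these data known, so these counts and medians are a description and no test of an excess. Bcl2l1 and Tnfrsf10b passed in all 3 comparisons, Bax and Bbc3 in both comparisons with MIN, and Mcl1 in both comparisons with Sulindac. Bcl2, Bid and Casp8 passed in none. The comparisons share samples: Adenoma is the reference of one and the test group of another, so their fold changes are not independent.

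**Figure D1:**
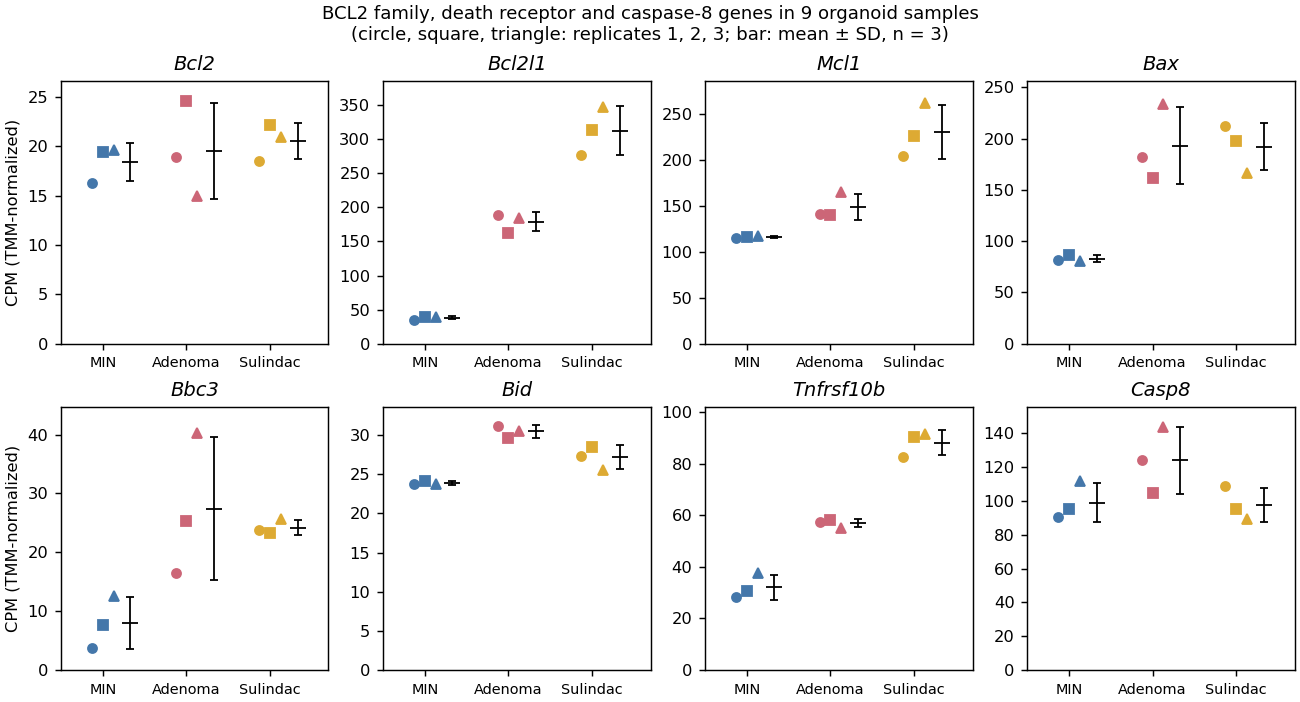
Level of each of the 8 genes in CPM (vertical axes from 0) in the MIN, Adenoma and Sulindac organoids, with 1 point per sample and a bar for the mean ± SD of 3 samples. Bcl2l1, Tnfrsf10b and Mcl1 stepped up from group to group without overlap, although the first step of Mcl1 did not pass. Bax was high in both adenoma-derived groups, and Bcl2 overlapped in all 3 groups.

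The sequence just upstream is shown for 4 of the 5 genes that were higher in Sulindac than in MIN. RefSeq promoter windows (build GRCm38.p6, which is not the build named for the count table, mm9) were held for 7 of the 8 genes, in 11 windows. The 250 bases before the annotated start are printed 5′ to 3′ on the gene's strand, for Bcl2l1 and Bbc3 1 of 3 windows each. Capitals mark GGGCGG (the core bound by SP1-type factors), CACGTG (the E-box) and the p53 decamer, each searched on both strands. Windows with CACGTG were preferred where a gene had any, and of the windows left the most upstream was printed. The CACGTG in the printed Bbc3 window thus follows from that choice.
Bcl2l1, chr2:152831729-152831978, minus strand: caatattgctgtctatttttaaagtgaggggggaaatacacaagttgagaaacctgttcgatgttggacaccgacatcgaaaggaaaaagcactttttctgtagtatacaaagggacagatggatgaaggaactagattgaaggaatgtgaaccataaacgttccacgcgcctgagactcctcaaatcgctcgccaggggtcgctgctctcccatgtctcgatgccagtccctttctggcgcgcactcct
Mcl1, chr3:95658471-95658720, plus strand: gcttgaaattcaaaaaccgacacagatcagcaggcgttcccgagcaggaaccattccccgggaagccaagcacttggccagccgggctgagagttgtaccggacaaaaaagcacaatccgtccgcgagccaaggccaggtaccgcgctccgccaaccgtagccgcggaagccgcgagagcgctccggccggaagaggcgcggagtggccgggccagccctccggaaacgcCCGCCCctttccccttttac
Bax, chr7:45466899-45467148, minus strand: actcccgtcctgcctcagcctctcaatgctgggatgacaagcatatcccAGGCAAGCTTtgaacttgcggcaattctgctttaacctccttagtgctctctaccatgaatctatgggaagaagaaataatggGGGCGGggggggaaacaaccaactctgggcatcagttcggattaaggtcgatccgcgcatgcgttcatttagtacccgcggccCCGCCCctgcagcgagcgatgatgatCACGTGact
Bbc3, chr7:16310181-16310430, plus strand: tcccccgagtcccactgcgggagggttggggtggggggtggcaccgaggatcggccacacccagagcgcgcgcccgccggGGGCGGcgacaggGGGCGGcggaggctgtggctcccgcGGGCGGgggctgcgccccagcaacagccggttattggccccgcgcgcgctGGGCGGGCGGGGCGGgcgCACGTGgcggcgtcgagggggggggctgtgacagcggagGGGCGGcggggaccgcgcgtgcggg
The Bcl2l1 window held no match and was 47.6% G and C. The Bbc3 window was 81.6% G and C and held 7 GGGCGG matches, of which 3 overlap in a run, and 1 CACGTG. The Bax window held 2 GGGCGG matches, 1 CACGTG and 1 p53 decamer, and the Mcl1 window 1 GGGCGG. Over all 32851 windows of this length, 32.7% held GGGCGG, 6.02% CACGTG and 7.13% the p53 decamer. Of the 11 windows of these genes, 7 held GGGCGG, 2 held CACGTG and 1 held the p53 decamer. Counted by gene, where a gene with more windows has more chances of a match, 5 of 7 held GGGCGG. By the same count 2 held CACGTG (Bax and Bbc3) and 1 held the p53 decamer (Bax). In all 10 motifs were searched, chosen after the expression values were known. TTCNNNGAA (the STAT motif, in 7.02% of all windows) and TGATGNAA (the ATF4 motif, 3.45%) were in no window of these genes. TGACGT (6.47%) was in Bcl2, TGTTTAC (3.17%) and the NF-kB motif (1.12%) in Bbc3, CCAAT (33.8%) in Bbc3 and Casp8, and CTTTGAA or CTTTGAT (7.48%) in Bax, where it overlaps the p53 decamer. These are matches of letters in 250 bases and no measurement of binding.

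The pro-survival gene Bcl2l1 had the largest log2 fold change of the 8 genes in each of the 3 comparisons. Bcl2l1 encodes BCL-XL, which binds BAX and several BH3-only proteins. Its level was 35.5, 38.7 and 39.7 CPM in MIN 1 to 3, 189, 163 and 184 CPM in Adenoma 1 to 3, and 276, 313 and 347 CPM in Sulindac 1 to 3. No sample of one group reached the range of another. The rise from MIN to Adenoma was 4.72-fold (log2 fold change 2.24, SE 0.11, edgeR adjusted p = 8.32e-07), and from Adenoma to Sulindac 1.76-fold (log2 fold change 0.81, SE 0.11, edgeR adjusted p = 0.00143). Sulindac organoids thus held 8.20-fold the level of MIN (log2 fold change 3.04, SE 0.11, edgeR adjusted p = 1.11e-07). With any 1 library left out, the log2 fold change from Adenoma to Sulindac stayed between 0.73 and 0.89 and passed each time. The counts are per gene, so the long and short splice forms of Bcl2l1, which encode proteins of opposite effect, are summed here, as are those of Mcl1.

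Mcl1, which encodes a short-lived pro-survival protein, rose with sulindac. It was 115, 116 and 118 CPM in MIN, 141, 140 and 165 CPM in Adenoma, and 205, 226 and 263 CPM in Sulindac. The MIN samples lay within a few CPM of one another, and the 3 groups did not overlap. Mcl1 was 1.56-fold higher in Sulindac than in Adenoma (log2 fold change 0.64, SE 0.12, edgeR adjusted p = 0.00448). That call was lost without Adenoma 1 (0.61, edgeR adjusted p = 0.0153), Adenoma 2 (0.61, edgeR adjusted p = 0.0180), Sulindac 2 (0.68, edgeR adjusted p = 0.0144) or Sulindac 3 (0.54, edgeR adjusted p = 0.0218). From MIN to Adenoma the log2 fold change was 0.36 with a 95% interval of 0.12 to 0.60 and did not pass (edgeR adjusted p = 0.0188), although it passed without MIN 3 and Adenoma 3 (0.28, edgeR adjusted p = 0.00931). From MIN to Sulindac it was 0.99 (SE 0.10, edgeR adjusted p = 4.76e-05).

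Bcl2, the founding member of the family, did not pass in any comparison. It was 16.3, 19.4 and 19.6 CPM in MIN, 18.9, 24.6 and 15.0 CPM in Adenoma, and 18.5, 22.1 and 20.9 CPM in Sulindac. Adenoma 2 was the highest and Adenoma 3 the lowest of all 9 samples, so the adenoma group alone spanned the other groups. The 95% intervals of the log2 fold change were -0.34 to 0.51 from MIN to Adenoma, -0.34 to 0.49 from Adenoma to Sulindac and -0.12 to 0.42 from MIN to Sulindac, and ended below the lower bounds for Bcl2l1 in the same comparisons (1.99, 0.55 and 2.79). Of the other pro-survival genes, only Bcl2l2 (BCL-W) was tested. It rose from 55.8 to 67.6 CPM in MIN to 85.4 to 106 CPM in Adenoma (log2 fold change 0.66, SE 0.12, edgeR adjusted p = 0.00199) and stood at 82.1 to 93.1 CPM in Sulindac. Its call was lost without MIN 1 or MIN 2 (edgeR adjusted p = 0.0123 and 0.0125), and 12.1% of its 50-base stretches recur in other genes. Bcl2l10 and the Bcl2a1 paralogs, most of which share the larger part of their sequence, were too low to test, at no more than 0.327 CPM.

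Among Mcl1, Bcl2l1 and Bcl2 the composition shifted accordingly. Per kilobase of the longest transcript, Mcl1 made up 65.5% to 67.8% of the summed Mcl1, Bcl2l1 and Bcl2 level in the MIN samples, Bcl2l1 27.7% to 29.4% and Bcl2 4.54% to 5.23%. In Adenoma the largest share was Bcl2l1 with 58.6% to 62.6%, and Mcl1 held 35.2% to 39.6%. In Sulindac, where both genes had risen, Bcl2l1 held 62.9% to 63.8%, Mcl1 34.6% to 35.7% and Bcl2 1.35% to 1.61%. The Adenoma and Sulindac shares of Bcl2l1 did not overlap but lay close together, while those of MIN were far below. Shares within a sample do not depend on the scaling between samples. Bcl2l2 was left out of them. Per kilobase of the longest transcript it was 14.6 to 17.7 CPM in MIN, 22.4 to 27.9 in Adenoma and 21.5 to 24.4 in Sulindac. By median transcript length it was 86.5 to 105 in MIN (Mcl1 54 to 55.1). It was then 132 to 165 in Adenoma and 127 to 144 in Sulindac (Bcl2l1 116 to 135 and 197 to 248). The most abundant pro-survival transcript in MIN and Adenoma thus depended on the genes included and the length used.

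**Figure D2:**
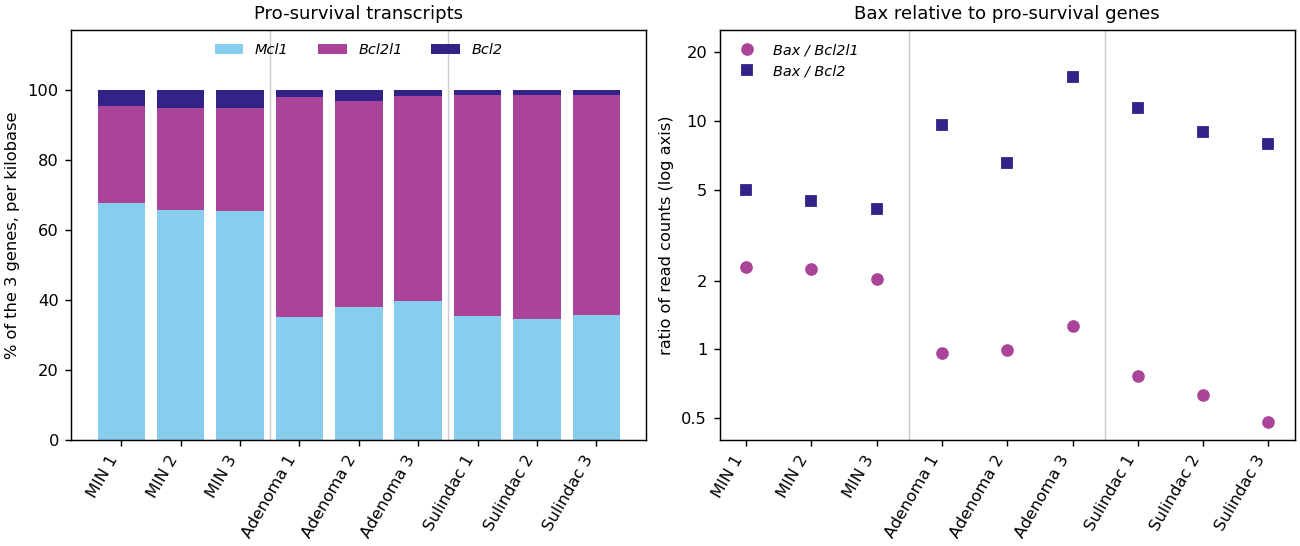
Left, share of Mcl1, Bcl2l1 and Bcl2 in their summed level per kilobase, in percent, for each of the 9 samples; right, ratio of Bax counts to Bcl2l1 counts and to Bcl2 counts in each sample, on a log axis. Bcl2l1 rises from at most 29.4% in MIN to at least 58.6% elsewhere, and Bax/Bcl2l1 falls from 2.04 or more to 1.27 or less while Bax/Bcl2 is higher in every adenoma-derived sample than in any MIN sample.

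Bax, whose protein forms pores in the outer mitochondrial membrane, was higher in adenoma-derived organoids with and without sulindac. It was 81.2, 86.8 and 80.9 CPM in MIN, 182, 162 and 234 CPM in Adenoma, and 212, 198 and 166 CPM in Sulindac. All MIN samples lay below all others, and Adenoma and Sulindac overlapped. The log2 fold change was 1.22 from MIN to Adenoma (SE 0.15, edgeR adjusted p = 0.000151) and 1.21 from MIN to Sulindac (SE 0.10, edgeR adjusted p = 1.56e-05). Between Adenoma and Sulindac it was 0.00 (95% interval -0.33 to 0.34, edgeR adjusted p = 0.987), with a sign that depended on the scaling (-0.16 with library size alone). In the annotation, 12.2% of the Bax exon bases overlap Gm45808 on the same strand, so some of its reads could be assigned to either.

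The counts of Bax per count of Bcl2l1 fell from 2.29, 2.24 and 2.04 in MIN to 0.962, 0.989 and 1.27 in Adenoma and 0.767, 0.631 and 0.479 in Sulindac. The groups did not overlap. Set against Bcl2, which passed in no comparison, Bax moved the other way, at 4.13 to 5 counts per count of Bcl2 in MIN, 6.57 to 15.6 in Adenoma and 7.97 to 11.4 in Sulindac. The ratio of Bax to Bcl2l1 or Bcl2 at the RNA level thus had a direction that depended on the partner chosen. No ratio to Mcl1 was taken. From MIN to Adenoma the log2 fold change of Bax was 1.22 and that of Mcl1 0.36. From Adenoma to Sulindac they were 0.00 and 0.64.
The other pore-forming genes went in different directions. Bok rose from 13 to 18.1 CPM in MIN to 36.5 to 52.9 CPM in Adenoma (log2 fold change 1.54, SE 0.18, edgeR adjusted p = 0.00014). Bak1, which encodes BAK, fell from 84.8 to 103 CPM to 49.2 to 62.3 CPM (log2 fold change -0.73, SE 0.13, edgeR adjusted p = 0.00156), with 17.1% of its 50-base stretches recurring in Ggnbp1. Counts of Bax per count of Bak1 were 0.787 to 0.954 in MIN, 2.96 to 3.76 in Adenoma and 3.32 to 3.73 in Sulindac. Neither gene passed between Adenoma and Sulindac (log2 fold change -0.56 for Bok and -0.06 for Bak1).

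Bbc3 encodes PUMA, a BH3-only protein that binds all the main pro-survival proteins. It varied widely within MIN and within Adenoma and little within Sulindac, at 3.77, 7.59 and 12.6 CPM in MIN, 16.4, 25.3 and 40.3 CPM in Adenoma, and 23.7, 23.2 and 25.6 CPM in Sulindac. MIN 3 and Adenoma 3, the libraries that stood apart, were the highest of their groups, and the Sulindac samples lay within the Adenoma range. The log2 fold change from MIN to Adenoma was 1.78 (SE 0.45, edgeR adjusted p = 0.0093), just inside the 1% limit. It remained positive but was no longer called without MIN 1 (1.43, edgeR adjusted p = 0.0172), MIN 2 (1.74, edgeR adjusted p = 0.0319), Adenoma 2 (1.83, edgeR adjusted p = 0.0174) or Adenoma 3 (1.39, edgeR adjusted p = 0.0492), or without MIN 3 and Adenoma 3 together (1.87, edgeR adjusted p = 0.0155). It passed with the replicate block (1.84, SE 0.14, edgeR adjusted p = 0.000132) and with DESeq2 (adjusted p = 6.06e-05). From MIN to Sulindac the log2 fold change was 1.60 (SE 0.36, edgeR adjusted p = 0.00465), a call lost without MIN 2 or any 1 of the Sulindac samples (edgeR adjusted p = 0.0161 to 0.0284). Between Adenoma and Sulindac it was -0.17, with a wide 95% interval of -0.78 to 0.44.

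Bid, the BH3-only substrate of caspase-8, differed little between groups and had little spread within them. It was 23.8, 24.2 and 23.7 CPM in MIN, 31.2, 29.6 and 30.5 CPM in Adenoma, and 27.4, 28.5 and 25.5 CPM in Sulindac. The groups did not overlap, yet no comparison passed at 1%. The log2 fold change from MIN to Adenoma was 0.35 (SE 0.10, edgeR adjusted p = 0.0166), and from Adenoma to Sulindac -0.16 (95% interval -0.38 to 0.06). From MIN to Sulindac it was 0.18 (95% interval -0.02 to 0.39). In the annotation, 17.7% of its exon bases lie opposite Bcl2l13, and whether strand was used in counting is not given in the sources used here.

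Of 5 other BH3-only genes tested, 2 rose from MIN to Adenoma, and 1 rose and 1 fell from Adenoma to Sulindac. They included a gene that climbed at both steps, as Bcl2l1 did. Bcl2l11, which encodes BIM, was 19.6 to 20 CPM in the MIN samples, 54.1 to 66.2 CPM in those of Adenoma and 116 to 132 CPM with sulindac. It rose with a log2 fold change of 1.61 (SE 0.11, edgeR adjusted p = 6.5e-06) and then of 1.04 (SE 0.11, edgeR adjusted p = 0.000437). Counts of Bcl2l11 per count of Bcl2l1 were 0.497 to 0.553 in MIN, 0.294 to 0.405 in Adenoma and 0.380 to 0.422 in Sulindac, so the ratio was lower in Adenoma than in MIN, and Adenoma and Sulindac overlapped. Bmf, which encodes a BH3-only protein linked to the cytoskeleton, went the other way with sulindac, from 4.6 to 7.21 CPM to 1.40 to 2.27 CPM (log2 fold change -1.71, SE 0.26, edgeR adjusted p = 0.00203). The call of Bmf was lost without Sulindac 2 or Sulindac 3 (edgeR adjusted p = 0.0111 and 0.0120). Bad rose from MIN to Adenoma (log2 fold change 0.74, SE 0.17, edgeR adjusted p = 0.00597), but not with the replicate number as a block (edgeR adjusted p = 0.0179) nor without 1 of 5 libraries, MIN 1, 2 or 3, Adenoma 2 or Adenoma 3 (up to 0.0168). Pmaip1 (NOXA) was 31.9, 37.1 and 79.6 CPM in MIN and 88.6, 100 and 176 CPM in Adenoma, with MIN 3 and Adenoma 3 again the highest of their groups. Its log2 fold change of 1.30 did not pass (edgeR adjusted p = 0.0184), but passed with the block (1.35, edgeR adjusted p = 0.000168).

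Tnfrsf10b, the gene of the TRAIL receptor DR5, rose at both steps. It was 28.2, 30.5 and 37.6 CPM in MIN, 57.4, 58.4 and 55.3 CPM in Adenoma, and 82.7, 90.3 and 91.5 CPM in Sulindac. The groups did not overlap, and the Adenoma samples lay close together. It was 1.78-fold higher in Adenoma than in MIN (log2 fold change 0.83, SE 0.13, edgeR adjusted p = 0.000652) and 1.55-fold higher in Sulindac than in Adenoma (log2 fold change 0.64, SE 0.09, edgeR adjusted p = 0.00148). The second of these was narrowly lost without Sulindac 3 (0.61, edgeR adjusted p = 0.0110). From MIN to Sulindac the log2 fold change was 1.46 (SE 0.11, edgeR adjusted p = 9.77e-06).
The gene of its ligand moved in the opposite direction. Tnfsf10 was 23.6, 33.8 and 34.8 CPM in MIN, 7.84, 7.82 and 6.04 CPM in Adenoma, and 2.77, 1.74 and 2.88 CPM in Sulindac. It fell at both steps without overlap between groups (log2 fold change -2.08, SE 0.19, edgeR adjusted p = 3.18e-05, and -1.54, SE 0.24, edgeR adjusted p = 0.00226). Counts of Tnfrsf10b per count of Tnfsf10 went from 0.901 to 1.2 in MIN to 7.32 to 9.15 in Adenoma and 29.9 to 51.8 in Sulindac.

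Of the 12 other death receptor and ligand genes listed, 10 were tested between MIN and Adenoma, and 4 rose and 1 fell, the latter being Tnfsf10. Eda2r, the receptor of ectodysplasin A2 and a known p53 target, rose most, from 3.70 to 6.92 CPM to 70.4 to 97.5 CPM (log2 fold change 4.17, SE 0.26, edgeR adjusted p = 3.7e-06). Tnfrsf22 (2.45) and Tnfrsf23 (1.83), neighbouring paralogs that bind TRAIL without a death domain, rose as well, with 27.4% and 19.3% of their 50-base stretches recurring in other genes. Tnfrsf26 rose too (2.51), but from counts of 2 to 5 to counts of 15 to 20, and its call was lost without MIN 2 (edgeR adjusted p = 0.0103) and without MIN 3 and Adenoma 3 together (edgeR adjusted p = 0.0119). Between Adenoma and Sulindac 2 of 10 rose and 1 fell. Tnfrsf21 (DR6) rose from 33.2 to 44.6 CPM to 73.4 to 75.1 CPM (log2 fold change 0.92, SE 0.12, edgeR adjusted p = 0.00126). Tnfrsf1a, the main TNF receptor gene, rose by 0.46 on the log2 scale (SE 0.09, edgeR adjusted p = 0.00651), a call lost with the replicate block (edgeR adjusted p = 0.0204), with library size alone (0.0328) and without any 1 library except Adenoma 3 (edgeR adjusted p = 0.0209 to 0.0345). Fas was at no more than 4.77 CPM and did not pass in any comparison.

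Casp8, the initiator caspase downstream of the death receptors, passed in no comparison. It was 90.3, 95 and 112 CPM in MIN, 124, 105 and 144 CPM in Adenoma, and 109, 95 and 89.6 CPM in Sulindac. The groups overlapped throughout. The log2 fold change was 0.33 from MIN to Adenoma (95% interval 0.00 to 0.66, edgeR adjusted p = 0.0844), -0.33 from Adenoma to Sulindac (95% interval -0.63 to -0.03, edgeR adjusted p = 0.0807) and -0.02 from MIN to Sulindac (95% interval -0.27 to 0.23). Casp8 thus passed in none of the comparisons in which Tnfrsf10b rose. Of 6 adaptor and necroptosis genes, 1 rose and 2 fell from MIN to Adenoma. The adaptor genes fell: Fadd from 25.8 to 33 CPM to 16.4 to 22.2 CPM (log2 fold change -0.69, SE 0.16, edgeR adjusted p = 0.00582) and Tradd from 33.1 to 37.4 CPM to 18.5 to 24.5 CPM (log2 fold change -0.74, SE 0.14, edgeR adjusted p = 0.00185). The Fadd call was lost without MIN 1, MIN 2, Adenoma 2 or Adenoma 3 (edgeR adjusted p = 0.0165 to 0.0281) and with library size alone (0.0245), and that of Tradd without MIN 2 (edgeR adjusted p = 0.0108). Mlkl, the effector of necroptosis, rose from 3.62 to 6.16 CPM to 12.0 to 16.8 CPM (log2 fold change 1.70, SE 0.24, edgeR adjusted p = 0.000408). Cflar, which encodes the caspase-8 inhibitor FLIP, did not pass (log2 fold change -0.28), and none of the 6 adaptor and necroptosis genes passed between Adenoma and Sulindac.

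**Figure D3:**
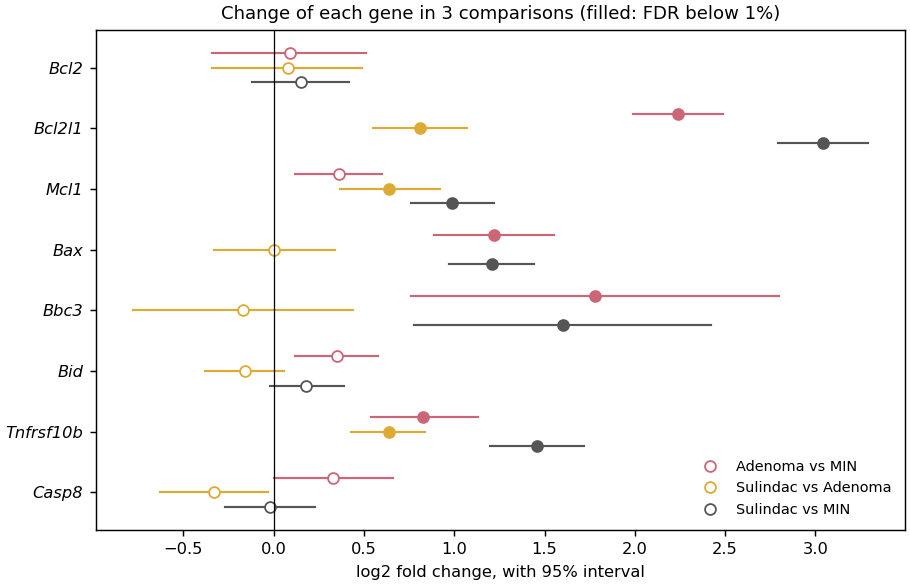
Log2 fold change of the 8 genes in the 3 comparisons (horizontal axis) with 95% intervals from the edgeR fit of 3 against 3 samples; filled points passed the false discovery rate of 1%. Bcl2l1 and Tnfrsf10b have 3 filled points each to the right of 0, and Bcl2, Bid and Casp8 have none.

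Of 9 other caspase genes listed, 5 fell and 2 rose from MIN to Adenoma. The widest change was in Casp1, an inflammatory caspase, at 59.2, 66.2 and 72.7 CPM in MIN and 1 to 6 counts (at most 0.168 CPM) in the Adenoma samples, with 3 to 4 counts in the Sulindac samples. The fitted log2 fold change of -9.14 (SE 0.28, edgeR adjusted p = 8.78e-08) rests on those few counts. Casp4, also inflammatory, fell (-2.43), as did Casp14 (-1.65, at most 1.04 CPM in any sample), while Casp12 rose (3.12) from at most 0.381 CPM to 2.02 to 3.49 CPM. The Casp14 call was lost with the replicate block (edgeR adjusted p = 0.0129) and without any 1 of the 6 libraries (edgeR adjusted p = 0.0101 to 0.0164), and was also lost without MIN 3 and Adenoma 3 together (-1.28, edgeR adjusted p = 0.0226). Among the other caspases, Casp2 fell (-0.75), Casp6 rose (0.99) and Casp9 did not pass (0.04). With sulindac, Casp6 fell from 58.2 to 74.0 CPM to 38.4 to 46.6 CPM (log2 fold change -0.69, SE 0.12, edgeR adjusted p = 0.00333), a call lost without Adenoma 2, Sulindac 1 or Sulindac 3 (edgeR adjusted p = 0.0129 to 0.0231). It was the only one of 7 tested to pass.

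Downstream of the mitochondria, 1 of 7 release and apoptosome genes fell from MIN to Adenoma and none rose. That gene was Cycs, cytochrome c, at 221 to 253 CPM in MIN and 116 to 133 CPM in Adenoma (log2 fold change -0.90, SE 0.11, edgeR adjusted p = 0.000142), with 26.1% of its 50-base stretches recurring in other genes, most in Gm10053. Of 5 inhibitor of apoptosis genes, Birc3 (-1.33) and Birc5 (-0.66) fell and Birc2 rose (0.66). The Birc2 call was lost without MIN 2 (edgeR adjusted p = 0.0117), and that of Birc5 without MIN 1, MIN 2 or Adenoma 2 (edgeR adjusted p = 0.0123 to 0.0137) and with library size alone (0.0121). None of these 12 genes passed between Adenoma and Sulindac. Over all 53 pathway genes besides the 8 and their regulators, 12 rose and 12 fell of 45 tested from MIN to Adenoma (median log2 fold change -0.08), 3 rose and 3 fell of 43 from Adenoma to Sulindac (-0.08), and 12 rose and 12 fell of 44 from MIN to Sulindac (0.04). Among all genes tested, 18.5% rose and 20.1% fell from MIN to Adenoma. The shares were 8.32% and 9.10% from Adenoma to Sulindac, and 23.0% and 26.8% from MIN to Sulindac.

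**Figure D4:**
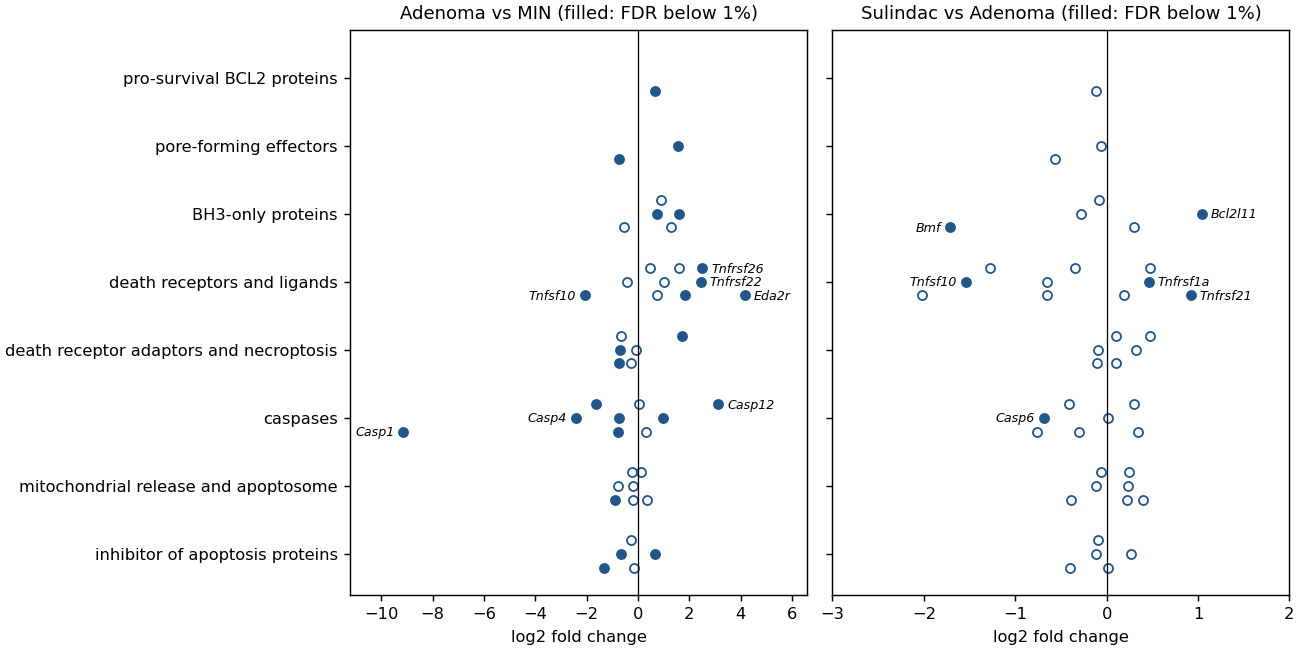
Log2 fold change (horizontal axes, with different ranges) of the tested genes of 8 pathway lists from MIN to Adenoma, left, and from Adenoma to Sulindac, right; each point is 1 gene and filled points passed the false discovery rate of 1%. From MIN to Adenoma 12 genes rose and 12 fell, with Casp1 at -9.14, and from Adenoma to Sulindac 6 genes passed.

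Of 7 regulator genes tested, 2 rose and 2 fell from MIN to Adenoma, and 2 rose and 1 fell from Adenoma to Sulindac. From MIN to Adenoma the p53 target gene Mdm2 rose (log2 fold change 1.13, SE 0.10, edgeR adjusted p = 2.2e-05). So did Ccng1, another p53 target (1.49, SE 0.18, edgeR adjusted p = 0.000168). Bax, Bbc3 and Tnfrsf10b rose too, the Bbc3 call being lost without several single libraries as given above. Cdkn1a did not pass (0.31, edgeR adjusted p = 0.22). Nor did Pmaip1 without the block (1.30, edgeR adjusted p = 0.0184) or Fas (0.74, edgeR adjusted p = 0.0475). Transcripts of Trp53 itself were 97.1 to 121 CPM in MIN and 121 to 133 CPM in Adenoma and did not pass, then fell with sulindac to 65.1 to 86.6 CPM (log2 fold change -0.77, SE 0.12, edgeR adjusted p = 0.00188). Mdm2 and Ccng1 did not pass at that step, with 95% intervals of -0.24 to 0.17 and -0.18 to 0.27. The Trp53 call was lost without Sulindac 1 or Sulindac 3 (edgeR adjusted p = 0.0124 and 0.0137).
Atf4 and Ddit3, which encode the stress response factors ATF4 and CHOP, fell from MIN to Adenoma and rose with sulindac. Ddit3, whose product is known to activate Tnfrsf10b, was 25.5, 24.9 and 51.0 CPM in MIN, 12.9, 12.5 and 15.2 CPM in Adenoma, and 33.7, 36.9 and 48.1 CPM in Sulindac. The log2 fold changes of Ddit3 were -1.32 (SE 0.27, edgeR adjusted p = 0.00358) and 1.56 (SE 0.16, edgeR adjusted p = 0.000363), the former lost without any 1 Adenoma sample (edgeR adjusted p = 0.0136 to 0.0158). Those of Atf4 were -1.24 (SE 0.19, edgeR adjusted p = 0.00058) and 1.12 (SE 0.12, edgeR adjusted p = 0.000493). Tnfrsf10b rose at both steps and Ddit3 only at the second, and a link between them was not tested. Foxo3, a regulator of Bcl2l11 and Bbc3, did not pass in any comparison.

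**Figure D5:**
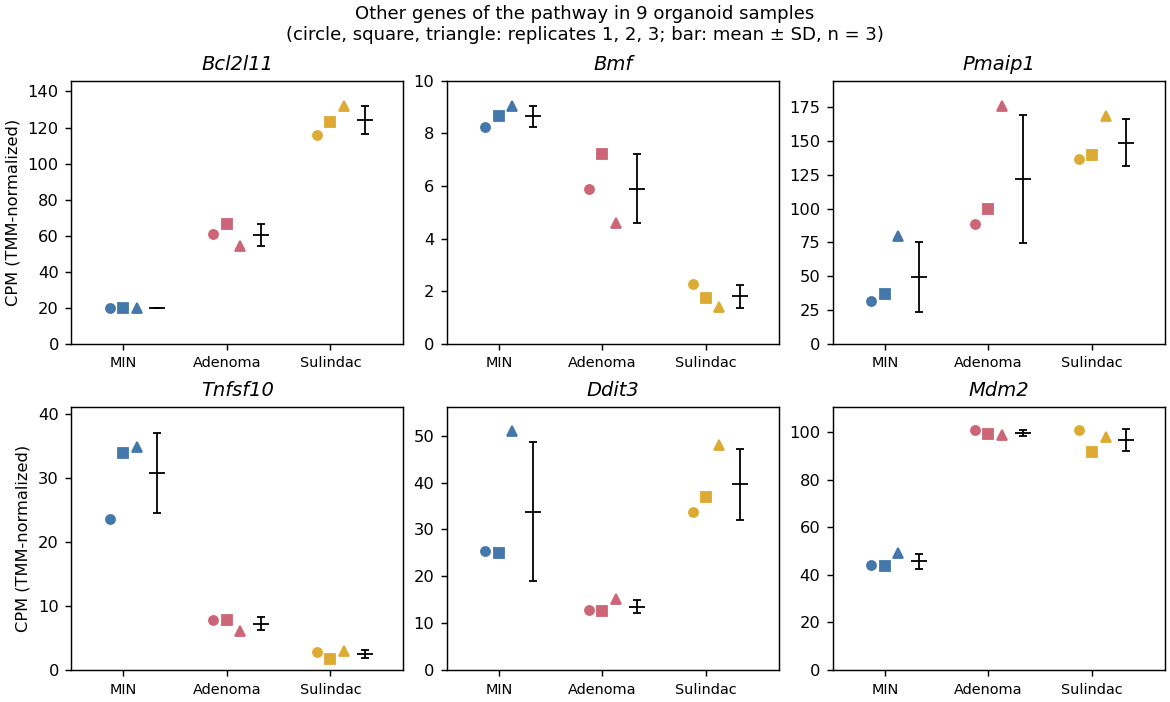
Level in CPM (vertical axes from 0) of 6 other genes of the pathway in the 9 samples, with 1 point per sample and a bar for the mean ± SD of 3 samples. From MIN to Sulindac the mean of Bcl2l11 climbs from 19.8 to 124 CPM while that of Tnfsf10 drops from 30.7 to 2.46 CPM, and Ddit3 is lowest in Adenoma.

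Levels can be set against one another only per length. Divided by the longest transcript, Bax was the most abundant of the 8 genes in every group, at 75.4 ± 3.00 CPM per kilobase (SD, n = 3) in MIN, 175 ± 34.0 in Adenoma and 174 ± 21 in Sulindac, and Bcl2 the least, at 2.56 ± 0.262, 2.71 ± 0.672 and 2.85 ± 0.254. Bcl2l1 moved from the fourth place in MIN (14.8 ± 0.867 CPM per kilobase) to the second in Adenoma (69.6 ± 5.29) and Sulindac (122 ± 14.0). In MIN, Casp8 (38.3 ± 4.40) and Mcl1 (34.1 ± 0.356) preceded it, and Tnfrsf10b (10.1 ± 1.54), Bid (9.89 ± 0.109) and Bbc3 (4.41 ± 2.45) followed. In Adenoma the order after Bcl2l1 was Casp8 (48 ± 7.61), Mcl1 (43.6 ± 4.19), Tnfrsf10b (17.9 ± 0.498), Bbc3 (15.1 ± 6.67) and Bid (12.6 ± 0.334). In Sulindac it was Mcl1 (67.7 ± 8.55), Casp8 (37.8 ± 3.86), Tnfrsf10b (27.7 ± 1.51), Bbc3 (13.3 ± 0.684) and Bid (11.2 ± 0.624). Neighbours whose sample ranges overlapped, and whose order is therefore not resolved, were Tnfrsf10b with Bid and Bbc3 with Bcl2 in MIN, and Casp8 with Mcl1, Tnfrsf10b with Bbc3 and Bbc3 with Bid in Adenoma. With the median transcript length Bax stayed first, Bcl2 last and Bcl2l1 second outside MIN, and the places between changed.

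The genes whose pattern was most like each of the 8, by Pearson's r of log2(CPM + 0.5) over the 9 samples among 13871 genes, are given as a description. The points share their libraries and fall into 3 groups. For Bcl2l1 they were Atg13 (0.998) and Ap3m2 (0.997), for Mcl1 Sqstm1 (0.996), and for Tnfrsf10b Rnf11 (0.998) and Pcx (0.996). For Bax they were Rce1 (0.995) and Mrpl43 (0.991), for Bbc3 Phldb3 (0.981) and Dynlt3 (0.980), and for Bid Cyb561 (0.984) and Fam122a (0.981). Casp8 (Pus3 and Rfxank, both 0.944) and Bcl2 (Ska2, 0.932, and Smurf2, 0.929) had no match as close. Likeness of pattern did not mean likeness of size: Atg13 went from 37.6 to 53.1 and 58.6 CPM in mean over the groups, where Bcl2l1 went from 38.0 to 179 and 312 CPM.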

How the data were processed

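The deposited table held whole-number read counts per gene symbol, which the authors made from total RNA libraries of mouse gut organoids; the submitters' processing notes name Bowtie2 2.2.4, RSEM and mm9, and the annotation and strand setting are not given in the sources used here. MIN 1 had 2 run columns and their sum, and the sum was used. No row was blank, and 27 rows whose symbol had become a date were left unnamed. Pairs of groups were compared with edgeR 4.0.16 in R 4.3.3 (filterByExpr, TMM, robust quasi-likelihood F test, only the 2 groups compared, Benjamini-Hochberg, false discovery rate 1%). The design text calls the samples biological replicates but does not say from which animals they came, so p-values measure the spread between these cultures. The 8 genes, the pathway lists and the markers were chosen with earlier results of these data known. All 8 genes and every listed gene were counted, and a few single-gene results are not reported here. Named with values are listed genes that passed from MIN to Adenoma or from Adenoma to Sulindac without overlap between the groups, at most 4 per list and comparison; Bcl2l10, the Bcl2a1 genes, Pmaip1, Fas, Cflar, Tnfrsf23, Casp2, Casp9, Cdkn1a, Foxo3 and, from MIN to Adenoma, Casp6 and Trp53 were named beyond this rule after their values were seen. Between MIN and Adenoma, samples of the same number deviated together over genes (r = 0.113 to 0.192, against -0.149 to 0.068 for different numbers), so the replicate number was tried as a block, which moved no call of the 8 genes. Transcript lengths, shared 50-base stretches and exon overlaps came from GENCODE M21 (GRCm38), and promoter windows from RefSeq. Alternatives were other scalings and filters, a single fit of all 9 samples, DESeq2 1.42.0 and a false discovery rate of 5%. Single libraries were also left out, as were, added after seeing the data, MIN 3 and Adenoma 3 together. The fits were tested on simulated data with 200 genes changed 2-fold. Recovered were 58.5% (Adenoma against MIN), 68% (Sulindac against Adenoma) and 67.5% (Sulindac against MIN), with 1, 8 and 1 false calls. A gene that did not pass may therefore still have changed.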

Additional observations from a re-analysis of the deposited data

How the results depend on the processing

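For the 8 genes, 320 results of alternatives were compared with the reported ones. Of these, 281 kept direction and side of the threshold, 18 fell out of the 1% limit, 6 came inside it and 15 changed sign. No value that changed sign passed before or after. With libraries left out, Bcl2 ranged from -0.115 to 0.287 from MIN to Adenoma (negative without MIN 1 or Adenoma 2) and from -0.089 to 0.286 from Adenoma to Sulindac (negative without Adenoma 3). From Adenoma to Sulindac, Bax ranged from -0.102 to 0.156 (negative without Adenoma 1, Adenoma 2, Sulindac 1 or Sulindac 2) and Bbc3 from -0.426 to 0.209 (positive without Adenoma 3). Casp8 from MIN to Sulindac ranged from -0.110 to 0.071 (positive without MIN 3, Sulindac 2 or Sulindac 3). From Adenoma to Sulindac, Bcl2 was also -0.096 with library size alone, and Bax -0.159 with library size alone, -0.011 with at least 10 counts and -0.006 with a single fit. The losses concerned Bbc3 against MIN, and Mcl1 and Tnfrsf10b between Adenoma and Sulindac. Besides the losses without single libraries given above, Bbc3 was not called between MIN and Adenoma with no low-count filter (adjusted p = 0.0367) or with at least 10 counts in every sample (0.0110), nor between MIN and Sulindac with no filter (0.0229), and Mcl1 was not called between Adenoma and Sulindac with library size alone (0.0132). Mcl1 and Bid came inside the limit from MIN to Adenoma with library size alone (0.00297 and 0.00444) and with DESeq2 (0.00696 and 0.00570), and Bid also with a single fit of all 9 samples (0.00680).

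The number of the 8 genes higher from MIN to Adenoma was 3 without a filter or with at least 10 counts, 5 with a single fit, and 6 with library size alone, DESeq2 or a false discovery rate of 5%, settings under which 3108, 2953 and 3493 genes of the whole table were higher instead of 2549. From Adenoma to Sulindac it was 2 with library size alone and 1 to 3 when single libraries were left out, with 1 without Sulindac 3, which was Bcl2l1. Library size alone moved the all-gene median log2 fold change to 0.125 from MIN to Adenoma, where 57.7% of called genes were then higher instead of 48%, and to -0.180 from Adenoma to Sulindac, where 23.3% were higher instead of 47.8%. In that comparison 1078 genes were higher and 1179 lower, which became 603 and 1983 with library size alone and 2034 and 2374 at a false discovery rate of 5%. DESeq2 called 1778 genes higher there. Leaving out single libraries gave 423 to 1403 higher and 386 to 1488 lower; the cause was not tested.

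With the replicate block, 4, 3 and 5 of the 8 genes were higher in the 3 comparisons, the same numbers as without it. It moved the calls of Bad, Pmaip1, Casp14 and Tnfrsf1a as given above, and brought Tnf (1.76, adjusted p = 0.00424) and Ripk3 (-0.65, 0.00693) from MIN to Adenoma and Bad (0.45, 0.00636) and Cflar (-0.39, 0.00400) from MIN to Sulindac inside the limit. In the comparisons with Sulindac same-numbered samples did not all deviate together (r = -0.074 to 0.253 with Adenoma and -0.030 to 0.396 with MIN). For different numbers r was -0.358 to 0.130 and -0.335 to 0.104. Mean r was 0.129 for same against -0.064 for different numbers with Adenoma, and 0.206 against -0.108 with MIN. Whether those samples were paired is not given in the sources used here. Counts per gene do not separate splice forms.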
